A study of Mus musculus with 12 samples.

Results

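The liver makes most of the proteins of the blood clotting and complement systems, and the 41 genes described here encode the coagulation and complement proteins of plasma that are made there. They are a list of named genes, 23 of coagulation and 18 of complement, out of 57180 in the deposited tables, and the list was drawn up with earlier results of these data known. Each of the 41 names matched a single gene, all 41 passed the filter on low counts, and the lowest value of any of them in any liver was 375 counts (F8), so that all 41 were among the 19350 genes tested.

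Clotting proceeds through a cascade of serine proteases, several of which need a vitamin K-dependent modification to bind membranes, and ends when thrombin turns fibrinogen into fibrin. Protein cofactors speed the cascade, plasma inhibitors and the protein C system hold it back, and plasmin dissolves the clot. The contact system, made of factor XII, plasma prekallikrein and kininogens, starts the intrinsic pathway and releases bradykinin. Complement is a related system of proteases that marks foreign surfaces. Its classical and lectin pathways recognize antibody or sugars, the alternative pathway amplifies the deposition of C3, and the terminal proteins C5 to C9 assemble a pore. Fibrinogen and C3 are acute-phase proteins, whose hepatic synthesis responds to inflammatory cytokines.

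RNA was measured in the livers of 12 mice, 3 per sex in each of 2 genotype groups called KO and Het. Every mouse in both groups carried the label Csa-/- (the gene is listed as Ercc8) and had been given the AAV9-CSA vector by intracerebroventricular injection as a neonate, which carries a human CSA cDNA behind the ubiquitous chicken β-actin promoter. The KO mice were the CX mice, killed when they reached the humane endpoint. Het mice were treated littermates of the same age and are labeled Csa-/-;Xpa+/-. For the KO group the genotype reads Csa-/-;Xpa+/+ in the design text and methods but Csa-/-;Xpa-/- for CX mice elsewhere in the study, so the groups are used here by their names KO and Het. Neither the age of each mouse nor a strain is given in the labels. KO livers thus differ from Het livers in genotype and in state of health together, and these cannot be told apart. The design asked how these livers differ by genotype and by sex.

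Values are given as CPM, the estimated counts of a gene per 1e+06 counts of the scaled library size. The libraries held between 30044812 and 43634073 counts assigned to genes. Xpa, the gene that the genotype labels name, was measured at 3.10, 4.65 and 6.34 CPM in the Het livers (lowest, median and highest of 6) and 0.992, 1.16 and 1.83 in the KO livers, without overlap (log2 fold change -1.83, adjusted p = 4.14e-05), and Ercc8 at 5.10, 7.13 and 8.68 CPM in the Het livers (lowest, median and highest of 6) and 14.8, 20.022 and 33.997 in the KO livers (log2 fold change 1.62, adjusted p = 1.56e-04), also without overlap. Xpa RNA was thus lower in every KO liver than in every liver labeled Xpa+/-, whereas the design text writes Xpa+/+ for the KO group. Ercc8 counts were present in every liver, although all mice carried the Csa-/- label. Counts per gene do not show whether a working transcript was made, and the part of the gene that they came from was not examined. All 8 hepatocyte markers were present, of which 1 was called higher in KO livers (Ahsg) and 2 lower (Ttr and Apoa2). These were 12.5% and 25.0%, against 12.2% and 10.2% of all genes tested. The summed level of the 8 was 61481 to 84043 CPM in Het livers, against 80039 to 139622 CPM in KO livers. The library KO_F_108 stood apart for these genes, as it was the highest or the lowest of the 12 livers for 22 of the 41 members (53.7%, 5 highest and 17 lowest), against 36.5% of all genes tested. For many of the results that rest on it, values without it are also given.

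The stretches upstream of 7 genes are shown to give the sequence context of the members on which the results below turn, namely the 3 fibrinogen genes, Pros1, C3, Klkb1 and F8. Each run is the 250 bases before the transcription start in RefSeq, 5′ to 3′ along the gene, in GRCm38.p6 coordinates. Capitals mark matches, on either strand, to TTCNNNGAA (the core motif of STAT proteins, which carry the interleukin 6 signal) or TTGCNNAA (a core of the C/EBP motif).
Fga (chr3:83025903-83026152, plus strand): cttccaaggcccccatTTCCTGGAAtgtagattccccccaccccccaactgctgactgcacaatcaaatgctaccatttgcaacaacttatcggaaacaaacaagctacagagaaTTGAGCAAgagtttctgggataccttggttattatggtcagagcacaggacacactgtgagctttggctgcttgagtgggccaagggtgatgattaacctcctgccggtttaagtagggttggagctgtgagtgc
Fgb (chr3:83049864-83050113, minus strand): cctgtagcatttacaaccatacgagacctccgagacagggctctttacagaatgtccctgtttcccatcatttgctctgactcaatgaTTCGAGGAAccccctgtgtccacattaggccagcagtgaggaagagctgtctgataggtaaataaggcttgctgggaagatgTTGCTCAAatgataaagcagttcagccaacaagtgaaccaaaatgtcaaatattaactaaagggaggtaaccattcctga
Fgg (chr3:83007474-83007723, plus strand): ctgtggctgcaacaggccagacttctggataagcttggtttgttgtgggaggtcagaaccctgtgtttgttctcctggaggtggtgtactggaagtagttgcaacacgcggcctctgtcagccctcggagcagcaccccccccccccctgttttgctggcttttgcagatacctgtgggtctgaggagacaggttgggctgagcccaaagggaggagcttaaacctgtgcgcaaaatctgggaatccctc
Pros1 (chr16:62854057-62854306, plus strand): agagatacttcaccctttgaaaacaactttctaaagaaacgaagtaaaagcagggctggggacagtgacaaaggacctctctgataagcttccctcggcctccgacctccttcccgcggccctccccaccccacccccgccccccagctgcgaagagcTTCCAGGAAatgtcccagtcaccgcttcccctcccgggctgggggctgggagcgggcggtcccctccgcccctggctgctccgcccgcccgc
C3 (chr17:57228137-57228386, minus strand): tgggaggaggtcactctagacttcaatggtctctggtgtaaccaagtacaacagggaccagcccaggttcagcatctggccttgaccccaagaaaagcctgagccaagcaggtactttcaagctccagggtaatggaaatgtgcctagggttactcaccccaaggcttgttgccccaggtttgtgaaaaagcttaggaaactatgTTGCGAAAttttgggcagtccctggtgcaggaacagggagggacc
Klkb1 (chr8:45294836-45295085, minus strand): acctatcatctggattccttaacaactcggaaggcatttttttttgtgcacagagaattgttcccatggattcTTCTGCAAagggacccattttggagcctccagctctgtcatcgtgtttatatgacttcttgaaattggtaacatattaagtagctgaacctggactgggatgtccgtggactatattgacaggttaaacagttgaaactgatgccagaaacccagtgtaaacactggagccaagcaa
F8 (chrX:75380042-75380291, minus strand): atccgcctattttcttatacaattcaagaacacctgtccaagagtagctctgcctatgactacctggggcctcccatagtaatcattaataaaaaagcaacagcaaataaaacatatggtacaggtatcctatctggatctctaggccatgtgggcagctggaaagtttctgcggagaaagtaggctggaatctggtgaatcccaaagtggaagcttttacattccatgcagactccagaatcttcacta

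A window of this kind could be matched by symbol for 33 of the 41 members, 20 in coagulation and 13 in complement. The first window listed for each symbol was used. The STAT letters were present in 6 of the 33 (F9, Pros1, Fga, Fgb, Masp2 and C8a), against 7.18% of all 27025 promoters and 6.17% of the 12038 promoters of tested genes. They stood in 3 of 7 members called higher in KO livers, 0 of 7 called lower and 3 of 19 not called. The C/EBP letters were present in 9 of the 33 (F9, Fga, Fgb, F11, Klkb1, Kng2, C1s1, C3 and C9), against 9.55% of all promoters and 8.18% of those of tested genes. They stood in 4 of 7 members called higher, 2 of 7 called lower and 3 of 19 not called. CAAAGTCCA, a form of the motif of HNF4, a hepatocyte nuclear factor, stood in 0.381% of all promoters and in no member's window. Fga and Fgb each held both a STAT and a C/EBP match, whereas the window of Fgg, their neighbor on chromosome 3, held neither. These matches describe letters, not binding.

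Across both sexes, 17 of the 41 members differed between KO and Het livers at an adjusted p under 0.05 (41.5%, edgeR quasi-likelihood test with Benjamini-Hochberg adjustment over all genes). Over all genes tested, 22.4% were called by the same test, 12.2% as higher and 10.2% as lower. Of the members, 9 were higher in KO livers (Kng1, Kng2, Pros1, C3, Serpinf2, Cfi, Fga, Fgb and Fgg) and 8 were lower (F8, Klkb1, C8g, Mug2, Mbl1, C1s1, Mug1 and Proc). DESeq2 called 21 members, these 17 and C8a, C4bp, Plg and F12. The median log2 fold change of the 41 was 0.04, against 0.02 over all genes, with members spread from -1.48 (C8a, not called) to 1.25 (Pros1). The genotypes did not overlap in 8 members that were higher in KO livers and in 4 that were lower, against 4.72% and 4.64% of all genes. The members thus held calls in both directions, in coagulation and in complement, as the plot of fold changes by role shows.

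**Figure D1:**
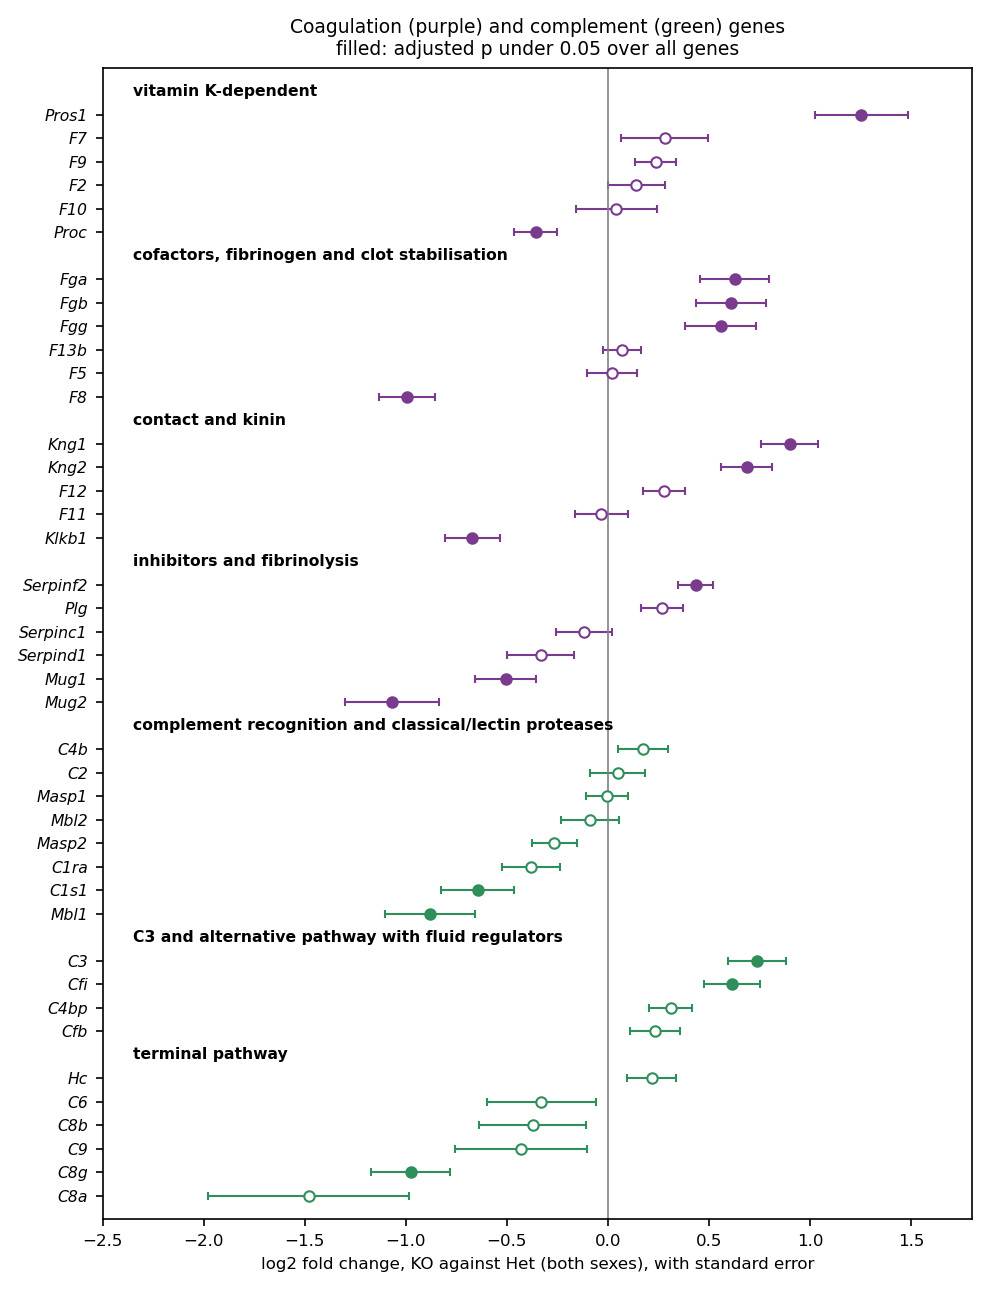
Log2 fold change of KO against Het livers over both sexes (horizontal axis, with the standard error) for the 41 genes, grouped by role, in purple for coagulation and green for complement. Filled points passed an adjusted p under 0.05 over all genes tested: 9 lie right of 0, led by Pros1 at 1.25, and 8 lie left of 0, led by Mug2 at -1.07.

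Of the vitamin K-dependent proteins, Pros1 rose and Proc fell, and the clotting proteases F2, F7, F9 and F10 did not pass the test. Pros1 encodes protein S, the cofactor with which activated protein C inactivates factors Va and VIIIa. Its levels were 66.0, 49.2 and 68.4 CPM in the Het females, 62.2, 59.8 and 49.9 in the Het males, 292, 112.1 and 109 in the KO females and 135, 107.8 and 107.8 in the KO males. Every KO liver lay above every Het liver, and KO_F_108 held the highest value. The rise was 2.38-fold (log2 fold change 1.25, standard error 0.23, adjusted p = 0.00396), and 0.93 on the log2 scale without KO_F_108. In females alone the log2 fold change was 1.48 (adjusted p = 0.0203), which became 0.83 without KO_F_108. That call was lost without Het_F_111 (adjusted p = 0.0533), Het_F_115 (0.0636) or Het_F_126 (0.0511). In males the log2 fold change was 1.03 (adjusted p = 0.0836), with no overlap.

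Proc encodes protein C itself, the anticoagulant protease that protein S assists. Its values were 304, 266 and 342 CPM in the Het females, 333, 383 and 332 in the Het males, 185, 251 and 249 in the KO females and 280.2, 294 and 273 in the KO males. The groups overlapped over both sexes but not within either sex. Proc fell (log2 fold change -0.36, standard error 0.11, adjusted p = 0.0313), although the call was lost without Het_F_111 (adjusted p = 0.0510), Het_F_126 (0.0604), Het_M_125 (0.0637), KO_M_118 (0.0605) or KO_M_136 (0.0608). Without KO_F_108 its log2 fold change was -0.31. The 4 proteases had log2 fold changes of 0.14 (F2, prothrombin), 0.28 (F7, the partner of tissue factor), 0.24 (F9, deficient in hemophilia B) and 0.04 (F10, which activates prothrombin), with adjusted p from 0.118 (F9) to 0.909 (F10). KO_F_112 had the highest F2, F7, F9 and F10 of all 12 livers, with 142 CPM of F7 against 51.4 to 70.6 CPM in the other livers. Among genes that serve vitamin K-dependent modification and secretion, 1 of 7 tested was called higher and 1 lower (14.3% each, against 12.2% and 10.2% of all genes). Nqo1, a quinone reductase, was at 8.14 ± 3.59 CPM in Het livers and 34.8 ± 5.33 in KO livers (mean ± SD, n = 6, log2 fold change 2.21, standard error 0.12, adjusted p = 7.10e-07). Ggcx, the carboxylase that modifies these proteins, was at 84.7 ± 7.19 CPM in Het livers and 47.6 ± 14.2 in KO livers (log2 fold change -0.85, standard error 0.17, adjusted p = 0.00617).

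The 3 fibrinogen chains rose together and F8 fell, whereas F5, the cofactor of factor Xa, and F13b, the carrier subunit of factor XIII, had log2 fold changes of 0.02 (adjusted p = 0.932) and 0.07 (adjusted p = 0.64). The fibrinogen genes are neighbors in GRCm39, Fgg at chr3:82915030-82922363, Fga at chr3:82933383-82940934 and Fgb at chr3:82947448-82957170. Fga, the α chain, was measured at 3411, 4185 and 3322 CPM in the Het females, 3338, 3297 and 3233 in the Het males, 9328, 4837 and 4671 in the KO females and 4622, 4412 and 4609.8 in the KO males. Fgb, the β chain, was measured at 2869, 3247 and 2878 CPM in the Het females, 2513, 2665 and 2339 in the Het males, 7288, 3846 and 3417 in the KO females and 3478, 3651 and 3653 in the KO males. Fgg, the γ chain, was measured at 2317, 2621 and 2104 CPM in the Het females, 1978, 2153 and 1920.1 in the Het males, 5614, 2932 and 2605 in the KO females and 2696, 2789 and 2792 in the KO males. KO_F_108 had by far the highest value of each chain, and the other 5 KO livers lay close together. The genotypes did not overlap for Fga and Fgb, and for Fgg the lowest KO liver, KO_F_123, fell just below the highest Het liver, Het_F_115.

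The log2 fold changes of the chains were 0.63 for Fga (standard error 0.17, adjusted p = 0.022), 0.61 for Fgb (0.17, adjusted p = 0.026) and 0.56 for Fgg (0.17, adjusted p = 0.0389). Without KO_F_108 they were 0.41, 0.39 and 0.33, more than 1.5 times smaller, and still called (adjusted p = 0.0153, 0.0171 and 0.0369). The Fga call was lost without Het_F_111, Het_F_126, Het_M_137 or KO_M_118 (adjusted p = 0.0519 to 0.0554). The Fgb call was lost without Het_F_111, Het_F_126, Het_M_119, Het_M_137, KO_M_118 or KO_M_136 (0.0542 to 0.0642). The Fgg call was lost without any liver other than the 3 KO females (0.0535 to 0.0911). With 1 liver left out, the log2 fold changes were 0.51 to 0.61 wherever a chain's call was lost. Without KO_F_108 and Het_F_126 together, Fgg was not called either, at a log2 fold change of 0.29 (adjusted p = 0.0735).

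F8 encodes factor VIII, the cofactor that is deficient in hemophilia A and that sinusoidal endothelial cells of the liver make. Its values were 41.5, 32.5 and 26.5 CPM in the Het females, 30.9, 22.2 and 29.6 in the Het males, 11.6, 15.6 and 13.3 in the KO females and 16.1, 20.3 and 15.1 in the KO males. No KO liver reached the lowest Het liver in either sex. F8 fell to 0.50 times its Het level (log2 fold change -0.995, standard error 0.14, adjusted p = 6.83e-04), with a log2 fold change of -1.31 in females (adjusted p = 0.00388) and -0.68 in males (adjusted p = 0.054). On the log2(TPM + 1) scale, on which changes of genes with low levels look smaller, the genotype difference was -0.59 and still called. Among the 8 markers of sinusoidal endothelium, 5 were lower in KO livers (Stab1, Clec4g, Fcgr2b, Kdr and Oit3) and none higher. The lower share was 62.5%, against 10.2% of all genes tested. The summed level of the 8 was 236 to 443 CPM in Het livers, against 179 to 297 CPM in KO livers. In bulk tissue, fewer cells of a type and less RNA per cell cannot be told apart, and the part of these markers in the F8 difference was not tested.

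**Figure D2:**
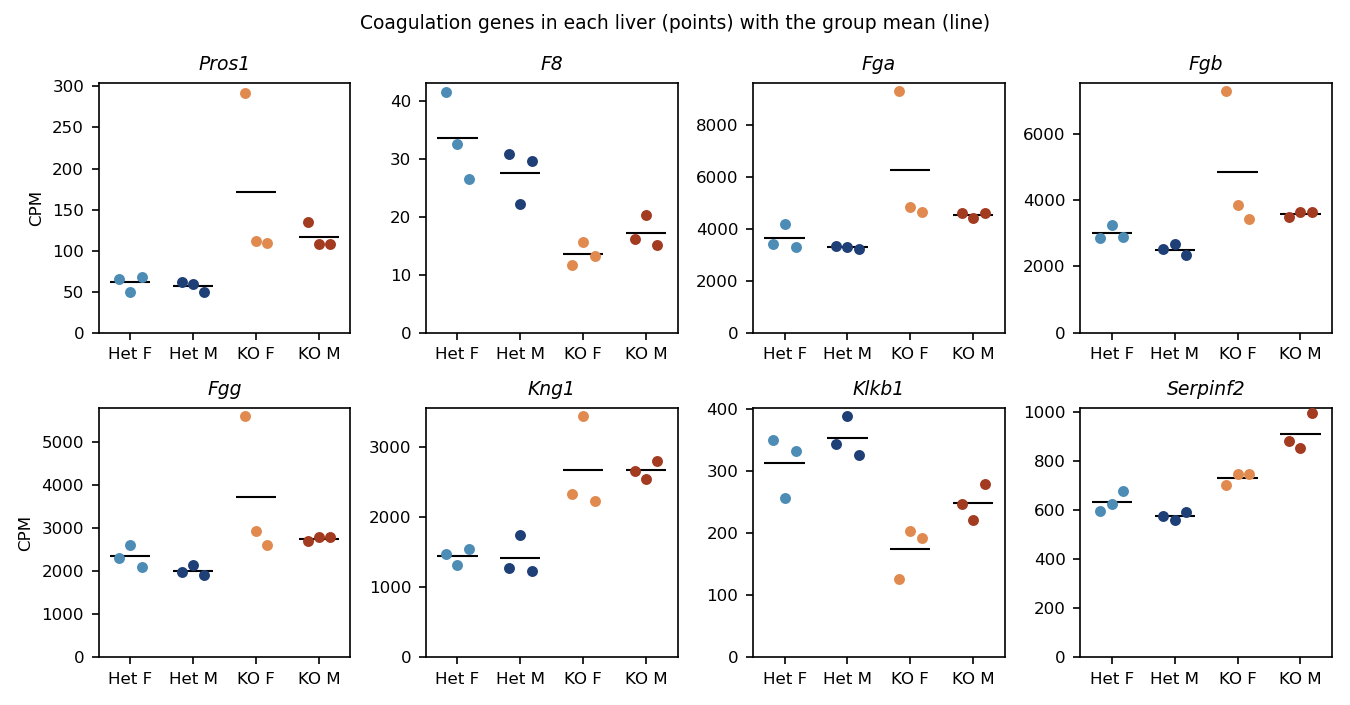
CPM of 8 coagulation genes in each liver (points, 3 mice per group) with the group mean (line), on vertical axes that start at 0. Pros1, Fga, Fgb, Kng1 and Serpinf2 lie above and F8 below the Het range in every KO liver, and the top point of Pros1, Fga, Fgb and Fgg is KO_F_108.

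In the contact and kinin group the kininogens rose and prekallikrein fell. Kng1 and Kng2 encode the kininogens, from which kallikrein releases bradykinin. Kng1 was measured at 1478, 1323 and 1542 CPM in the Het females, 1274, 1749 and 1236 in the Het males, 2334, 3451 and 2237 in the KO females and 2658, 2545 and 2804 in the KO males, and every KO liver exceeded every Het liver. It rose 1.86-fold (log2 fold change 0.90, standard error 0.14, adjusted p = 0.00141), with nearly equal log2 fold changes in females (0.88, adjusted p = 0.02) and in males (0.91, adjusted p = 0.0196). Kng2 was measured at 207, 178 and 213 CPM in the Het females, 165, 237 and 163 in the Het males, 382, 325 and 276 in the KO females and 313, 262 and 316 in the KO males, also without overlap. It rose 1.61-fold (log2 fold change 0.69, standard error 0.13, adjusted p = 0.00336), with log2 fold changes of 0.71 in females (adjusted p = 0.0283) and 0.66 in males (adjusted p = 0.0451). The kininogen genes are neighbors on chromosome 16, and 23.3% of the 31-base words of Kng1 and 28.9% of those of Kng2 were shared with another gene, in the main with each other, so that the assignment of reads between them is uncertain.

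Klkb1 encodes plasma prekallikrein, the protease that cleaves kininogen. Its values were 349, 256 and 331 CPM in the Het females, 342, 388 and 325 in the Het males, 127, 203 and 192 in the KO females and 247, 220.3 and 279.5 in the KO males. Within each sex every KO liver lay below every Het liver, and over both sexes the highest KO male exceeded the lowest Het female. Klkb1 fell to 0.63 times its Het level (log2 fold change -0.67, standard error 0.13, adjusted p = 0.00527), with log2 fold changes of -0.84 in females (adjusted p = 0.0201) and -0.50 in males (adjusted p = 0.137). The female call was lost without Het_F_111 (adjusted p = 0.0578) or Het_F_126 (0.0517). Without KO_F_108 it was kept, at a log2 fold change of -0.68. Of the 31-base words of Klkb1, 43.2% were shared, nearly all with Gm45753, whose own level was 39.6 CPM in Het and 23.5 CPM in KO livers (log2 fold change -0.73, adjusted p = 0.0635). F12, which starts the contact pathway, and F11, its next protease and the neighbor of Klkb1 on chromosome 8, had log2 fold changes of 0.28 (adjusted p = 0.0809) and -0.03 (adjusted p = 0.886).

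Among inhibitors and fibrinolysis proteins, Serpinf2 rose and both murinoglobulins fell. Serpinf2 encodes α2-antiplasmin, the main inhibitor of plasmin. Its values were 597, 624 and 678 CPM in the Het females, 574, 560.1 and 590.3 in the Het males, 703, 745 and 744 in the KO females and 879, 851 and 994 in the KO males. The genotypes did not overlap, and the KO males held the highest values. The rise was 1.35-fold (log2 fold change 0.43, standard error 0.09, adjusted p = 0.00553). It was called in males (log2 fold change 0.66, adjusted p = 0.0102) and not in females (0.21, adjusted p = 0.29), and the difference between the sexes was 0.45 with an adjusted p of 0.486 (unadjusted p = 0.0245).

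Mug1 and Mug2 encode murinoglobulins, rodent plasma proteins of the α2-macroglobulin family that trap many proteases. Mug2 was measured at 954, 707 and 1052 CPM in the Het females, 816, 954 and 1097 in the Het males, 163, 205 and 391 in the KO females and 765, 1046 and 517 in the KO males. All KO females lay below all Het females, whereas KO and Het males overlapped. Mug2 fell over both sexes (log2 fold change -1.07, standard error 0.23, adjusted p = 0.00771), by 1.84 on the log2 scale in females (adjusted p = 0.00868), against a log2 fold change of -0.30 in males (adjusted p = 0.622). The female call was kept without each single mouse, with a log2 fold change of -1.62 without KO_F_108. It was lost when KO_F_108 and Het_F_126 were left out together (log2 fold change -1.50, adjusted p = 0.0687). Mug1 was measured at 2658, 2278 and 3549 CPM in the Het females, 3821, 4844 and 4322 in the Het males, 1863, 2629 and 1668 in the KO females and 2967, 2829.7 and 3067 in the KO males. It was lower in every KO male than in every Het male, and the females overlapped. Mug1 fell (log2 fold change -0.51, standard error 0.15, adjusted p = 0.0308), although the call was lost without Het_F_126, Het_M_125, Het_M_137, KO_F_123, KO_M_118, KO_M_122 or KO_M_136 (adjusted p = 0.0506 to 0.0651). Of their 31-base words, 65.4% (Mug2) and 35.7% (Mug1) were shared, chiefly with ENSMUSG00000121497, which itself fell (from 107.9 to 49.6 CPM, log2 fold change -1.38, adjusted p = 0.00452), so the levels of these genes may be divided uncertainly.

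The other 3 of this group did not pass the test. Serpinc1 (antithrombin) had a log2 fold change of -0.12 (adjusted p = 0.576), Serpind1 (heparin cofactor II) -0.33 (adjusted p = 0.173) and Plg (plasminogen) 0.27 (adjusted p = 0.0857). KO_F_108 had the lowest Serpinc1 and the lowest Serpind1 of all livers, at 933 and 151 CPM. Of 24 further tested genes of coagulation and fibrinolysis, 7 were called higher and 4 lower (29.2% and 16.7%, against 12.2% and 10.2% of all genes). Hrg (histidine-rich glycoprotein, a plasma protein that binds plasminogen and fibrinogen) was at 482 ± 61.1 CPM in Het livers and 1276 ± 276 in KO livers (log2 fold change 1.40, standard error 0.15, adjusted p = 1.86e-04). Fgl1, a fibrinogen-like protein, was at 176 ± 116 CPM in Het livers and 521 ± 112.1 in KO livers (log2 fold change 1.78, standard error 0.31, adjusted p = 0.0033). Serpine2, a protease inhibitor of tissues rather than of plasma, was at 5.10 ± 2.72 CPM in Het livers and 1.04 ± 0.688 in KO livers (log2 fold change -2.40, standard error 0.39, adjusted p = 0.00212). The other calls were Plaur, Cpb2, Serpina10, Procr and Plat, which were higher, and Tfpi, Tfpi2 and Hgf, which were lower.

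In complement, the recognition molecules and early proteases held 2 calls of 8 (25.0%, against 22.4% of all genes tested), both lower in KO livers. Mbl1 encodes a mannose-binding lectin that starts the lectin pathway. It was measured at 107, 125.3 and 129.6 CPM in the Het females, 114.5, 175 and 133 in the Het males, 29.2, 60.4 and 92.7 in the KO females and 75.4, 84.3 and 87.8 in the KO males, without overlap, and with the lowest value in KO_F_108. It fell to 0.54 times its Het level (log2 fold change -0.88, standard error 0.22, adjusted p = 0.0173), and its log2 fold change was -0.73 without KO_F_108. C1s1 encodes C1s, the protease of the classical pathway that cleaves C4 and C2. It was measured at 339, 303 and 336 CPM in the Het females, 398, 420.2 and 366 in the Het males, 113, 168 and 280.0 in the KO females and 302, 302 and 239 in the KO males. The highest KO liver, a male, lay just under the lowest Het liver, a female. C1s1 fell (log2 fold change -0.65, standard error 0.18, adjusted p = 0.0241), and the call was lost without KO_F_112 (adjusted p = 0.0522) or KO_M_136 (0.0537). Without KO_F_108 its log2 fold change was -0.53. Of its 31-base words, 29.8% were shared with C1s2, a near copy that was not tested, and its reads may be divided between them.

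Mbl2 encodes the other mannose-binding lectin, and its genotype difference had opposite signs in the sexes. The livers held 341, 346 and 321 CPM in the Het females, 138, 229.9 and 159.5 in the Het males, 151, 224 and 246 in the KO females and 255, 254 and 250.3 in the KO males. The KO females lay below all Het females and the KO males above all Het males, so that Het females were highest and Het males lowest of the 4 groups. In females the log2 fold change was -0.70 (adjusted p = 0.047), a call lost without any one of 9 livers (adjusted p = 0.0572 to 0.132) and kept without Het_M_119, Het_M_125 or KO_F_123. In males it was 0.53 (adjusted p = 0.142, not called). The difference between the sexes was 1.23 (standard error 0.29, unadjusted p = 0.00112, adjusted p = 0.224). The other 5 of the group had log2 fold changes of 0.17 (C4b), 0.05 (C2), -0.01 (Masp1), -0.27 (Masp2) and -0.38 (C1ra), with adjusted p from 0.0789 (C1ra) to 0.973 (Masp1). C4b and C2 encode the components cleaved by C1s, C1ra encodes the partner protease of C1s, and the Masp genes encode the proteases of the lectin pathway. The levels of C1ra, C4b and C2 are uncertain in the same way, since 54.0%, 42.0% and 35.3% of their 31-base words were shared with other genes.

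C3 and its regulator Cfi rose. C3 is the component on which all complement pathways converge, and it was the most abundant of the 41 transcripts per length, with 1404 ± 362 TPM (a level scaled for transcript length, which sums to 1e+06 in each library) in Het and 2347 ± 246 TPM in KO livers (mean ± SD, n = 6). In CPM it was measured at 8951, 9390.3 and 9255 CPM in the Het females, 5642, 9303 and 6274 in the Het males, 13020.2, 13919.6 and 13909 in the KO females and 13516, 11587 and 14638 in the KO males. Every KO liver exceeded every Het liver, and Het_M_119 and Het_M_137 were the lowest. C3 rose 1.67-fold (log2 fold change 0.74, standard error 0.14, adjusted p = 0.00452), with log2 fold changes of 0.57 in females (adjusted p = 0.0885) and 0.91 in males (adjusted p = 0.0213). Cfi encodes factor I, the protease that degrades C3b and C4b. Its transcript was at 412, 409.7 and 445 CPM in the Het females, 298, 424 and 318 in the Het males, 466, 776 and 535 in the KO females and 537, 562 and 634 in the KO males, again without overlap. It rose 1.53-fold (log2 fold change 0.61, standard error 0.14, adjusted p = 0.00961), with log2 fold changes of 0.49 in females (adjusted p = 0.124) and 0.74 in males (adjusted p = 0.0427).

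C4bp, which encodes a chain of the C4b-binding protein that assists factor I, had a log2 fold change of 0.31 that just missed the threshold (adjusted p = 0.0546) and passed it without KO_F_108 (0.35, adjusted p = 0.0293) or Het_M_125 (0.35, adjusted p = 0.0497), with DESeq2 (adjusted p = 0.0257) and with limma on log2(TPM + 1) (0.0224). Cfb, the protease of the alternative pathway convertase, had a log2 fold change of 0.23 (adjusted p = 0.206), and 60.5% of its 31-base words were shared with Gm20547, a transcript that also shares words with C2 and was measured at under 1 CPM. Of 31 further tested complement genes, 8 were called higher (Itgam, Vsig4, C1qb, C1qc, C5ar1, Cpn2, Cfp and C1qa) and 7 lower (Cfhr3, Colec10, Colec11, C5ar2, Cd59b, C7 and Cfhr2). These were 25.8% and 22.6%, against 12.2% and 10.2% of all genes tested. Itgam, the α chain of complement receptor 3 on myeloid cells, was at 1.44 ± 0.852 CPM in Het livers and 4.57 ± 1.70 in KO livers (log2 fold change 1.79, standard error 0.18, adjusted p = 1.14e-04). Colec10, a collectin of the lectin pathway, was at 32.3 ± 9.53 CPM in Het livers and 12.8 ± 4.20 in KO livers (log2 fold change -1.31, standard error 0.18, adjusted p = 7.46e-04), and Cfhr3, a factor H-related protein, at 1.55 ± 0.335 CPM in Het livers and 0.556 ± 0.092 in KO livers (log2 fold change -1.40, standard error 0.19, adjusted p = 6.80e-04). Among 7 Kupffer cell markers, 3 were higher in KO livers (Vsig4, Cd5l and Marco) and none lower, with a summed level of 92.1 to 255 CPM in Het livers, against 135 to 422 CPM in KO livers. Among 8 stellate cell markers 5 were lower (Lrat, Reln, Ecm1, Colec11 and Hgf) and none higher (279 to 536 CPM in Het livers, against 143 to 285 CPM in KO livers). The Kupffer share was 42.9% against 12.2% of all genes called higher, and the stellate share 62.5% against 10.2% called lower. Vsig4, Colec11 and Hgf stand in both a marker list and a list of further genes. Of the markers of other cells, 2 of 5 for megakaryocytes or platelets (Pf4 and Itgb3) and 2 of 5 tested for neutrophils (S100a8 and Mmp8) were higher (40.0% each, against 12.2% of all genes). For cholangiocytes 0 of 5 and for lymphocytes 0 of 6 were called, and the neutrophil gene Ly6g had at most 3 counts in every liver. The part of these cells in the complement values was not tested.

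**Figure D3:**
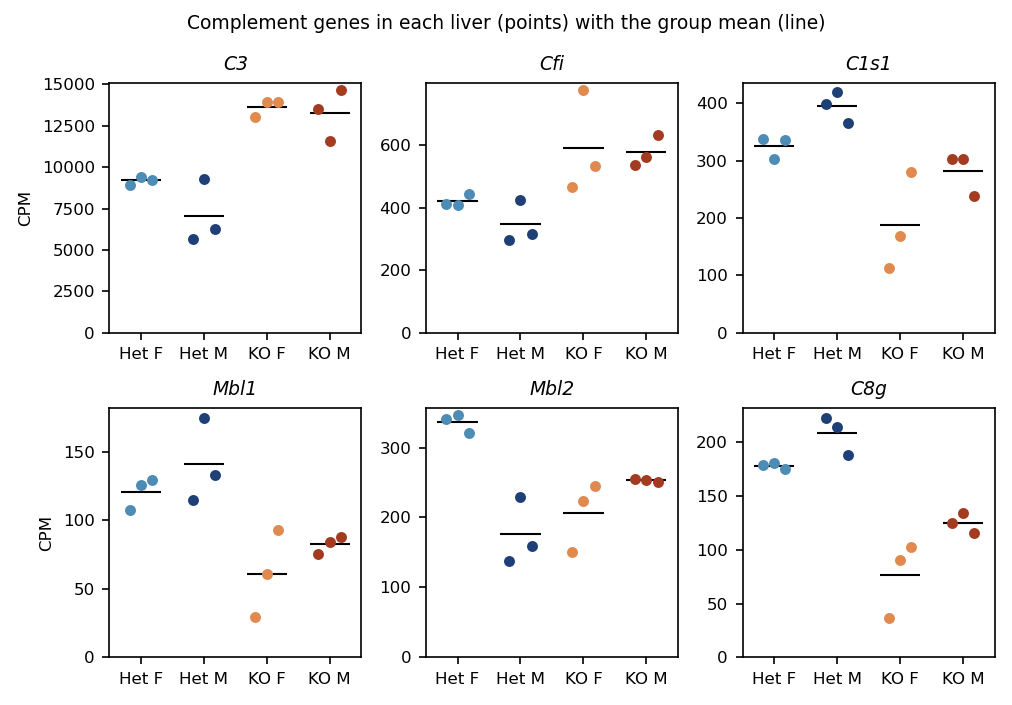
CPM of 6 complement genes in each liver (points, 3 mice per group) with the group mean (line), on vertical axes that start at 0. C3 and Cfi lie above and C1s1, Mbl1 and C8g below the Het range in every KO liver, whereas Mbl2 is lower in KO females and higher in KO males than in Het mice of the same sex.

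Of the 6 terminal pathway genes, 1 passed the genotype test (16.7%, against 22.4% of all genes tested). C8g encodes the γ chain of C8, a lipocalin that is joined to the α chain. It was measured at 179, 181 and 175 CPM in the Het females, 223, 214 and 189 in the Het males, 36.6, 90.4 and 103 in the KO females and 125.2, 134 and 116 in the KO males. All KO livers lay below all Het livers, and KO_F_108 was the lowest. C8g fell to 0.51 times its Het level (log2 fold change -0.98, standard error 0.20, adjusted p = 0.0055), and its log2 fold change was -0.82 without KO_F_108. In females the fall was 1.22 on the log2 scale (adjusted p = 0.0214), with a log2 fold change of -0.74 in males (adjusted p = 0.133). Without KO_F_108 the female log2 fold change was -0.90.

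C8a, the α chain, had the most negative fitted value of all members and just missed the test (log2 fold change -1.48, standard error 0.50, adjusted p = 0.0581). It was measured at 82.9, 152 and 365 CPM in the Het females, 539, 754 and 566 in the Het males, 13.7, 88.1 and 133 in the KO females and 179, 244 and 189 in the KO males. The spread among females was wide, as KO_F_108 was at 13.7 CPM and Het_F_126 well above the other Het females. C8a passed the test without Het_F_111 (log2 fold change -1.68, adjusted p = 0.0401), KO_F_108 (-1.24, 0.0351) or KO_F_123 (-1.80, 0.0383). It also passed with DESeq2 (adjusted p = 0.0208), limma on log2(TPM + 1) (0.0457), the additive model (0.0454), no robust estimation (0.0390) and at least 10 reads in every liver (0.0463). In 19 of 28 alternatives it stayed uncalled, with adjusted p up to 0.134. The log2 fold change shrank to -1.11 without Het_F_126, where it was not called. Without KO_F_108 and Het_F_126 together it was -0.86 and called (adjusted p = 0.0196). C8b, the β chain, C9, the pore-forming component, and C6 had log2 fold changes of -0.37 (adjusted p = 0.341), -0.43 (adjusted p = 0.377) and -0.33 (adjusted p = 0.407). Hc encodes C5, from which the terminal complex starts, and had a log2 fold change of 0.22 (adjusted p = 0.218).

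Within each sex fewer members were called. In females 3 of the 41 were higher (Kng1, Pros1 and Kng2), against 5.94% of all genes, and 5 were lower (F8, Mug2, Klkb1, C8g and Mbl2), against 5.1%. In males 5 were higher (Serpinf2, Kng1, C3, Cfi and Kng2), against 4.47% of all genes, and 0 were lower, against 2.98%. With an unadjusted p under 0.05 there were 20 members in females, against 29.0% of all genes, and 14 in males, against 24.1%. In males DESeq2 called 2 members lower (F8 and C6), and edgeR on the 6 male livers alone called 6 (C8a, C6, C8b, C8g, Mbl1 and F8). Without KO_F_108, a female, 7 were called higher and 4 lower in males. Leaving out single livers of the contrast moved the counts in both sexes. Without Het_F_111, Het_F_115 or Het_F_126, the female calls numbered 3 (F8, Mug2 and C8g), 4 (these and Klkb1) and 3 (F8, Mug2 and C8g), and without Het_M_119, Het_M_137, KO_M_118 or KO_M_136 the only male call was Serpinf2. The female calls of Kng1 and Kng2 were also lost without KO_F_112 (adjusted p = 0.0560 and 0.0607), and that of Kng2 without KO_F_108 (0.101). The male calls of Kng2 and Cfi were also lost without Het_F_111, Het_F_115, Het_F_126 or KO_M_122 (adjusted p = 0.0558 to 0.0839), and that of Kng2 without KO_F_112 (0.0593).

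No member was called for the interaction, which asks whether the KO effect differs between the sexes, against 0.0465% of all genes (9 of 19350). At an unadjusted p under 0.05 there were 5, namely Mbl2, Mug2, C6, Serpinf2 and F8, against 9.28% of all genes. DESeq2 called 1 (Mbl2). A call in 1 sex and not in the other is thus not shown to be a difference between them for any of the genes above by the main test.

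Sex was compared over both genotypes and within each. C6 was the only member called for sex over both genotypes, against 1.02% of all genes, and its male level exceeded its female level by a log2 value of 2.04 (standard error 0.28, adjusted p = 0.00618). C6, a part of the pore complex, was measured at 21.8, 17.9 and 47.9 CPM in the Het females, 194, 198 and 216 in the Het males, 20.3, 55.6 and 41.5 in the KO females and 109, 92.3 and 85.3 in the KO males, and every male lay above every female. In Het mice the log2 difference was 2.79 (adjusted p = 0.00728, 0.92% of all genes called), and in KO mice 1.29 (adjusted p = 0.244), where no member and 0.0517% of all genes were called. In KO mice 11 members had an unadjusted p under 0.05, against 12.6% of all genes. All 6 terminal genes had higher fitted levels in males, with a median log2 difference of 0.97 over both genotypes, 1.27 in Het and 0.75 in KO mice, and all 6 had an unadjusted p under 0.05 over both genotypes, as did 16 of the 41 members and 13.8% of all genes. The sex differences of the other 5 had adjusted p from 0.136 (C8b) to 0.317 (C8g).

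C8b was measured at 51.2, 76.0 and 183 CPM in the Het females, 297, 275 and 261 in the Het males, 73.1, 129.9 and 125.1 in the KO females and 151, 159 and 159 in the KO males. Among Het mice each male lay above each female, although Het_F_126 was far above the other Het females. Without Het_F_126 the log2 sex difference of C8b was 1.30 (adjusted p = 0.00294), against 0.97 with it (adjusted p = 0.136). Leaving out other livers lowered it, to 0.80 without Het_F_111 and 0.85 without KO_F_108 (adjusted p = 0.235), neither called. C9 was measured at 133, 128 and 221 CPM in the Het females, 409, 336 and 305 in the Het males, 53.6, 90.8 and 255 in the KO females and 276, 241 and 179.8 in the KO males. KO_F_123 lay within the range of the KO males, and without it the log2 sex difference was 1.39 (adjusted p = 0.00842), against 0.96 with it (adjusted p = 0.225). Without KO_F_108, the liver with the lowest C9, it was 0.76 and not called (adjusted p = 0.278). Hc was measured at 624, 658 and 833 CPM in the Het females, 883, 1013 and 792 in the Het males, 702, 932 and 889 in the KO females and 963, 962 and 1109.6 in the KO males, with sexes that overlapped in Het and did not in KO mice. In 5 of the 6 genes (all but Hc) Het males lay above Het females without overlap, against 8.03% of all genes, and the same 5 genes were lower in every KO male than in every Het male, against 15.4%. Both comparisons use the same 3 Het males, and 3.67% of all genes showed both at once. In females C8g alone of the 6 was lower in every KO than in every Het liver, against 14.7% of all genes. The log2 fold changes of KO against Het in males were -1.08 (C6), -1.60 (C8a), -0.83 (C8b), -0.74 (C8g) and -0.59 (C9), with adjusted p from 0.116 (C6) to 0.483 (C9), and none was called by edgeR on all 12 livers. As given above, edgeR on the male livers alone called C8a, C6, C8b and C8g, and DESeq2 called C6.

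**Figure D4:**
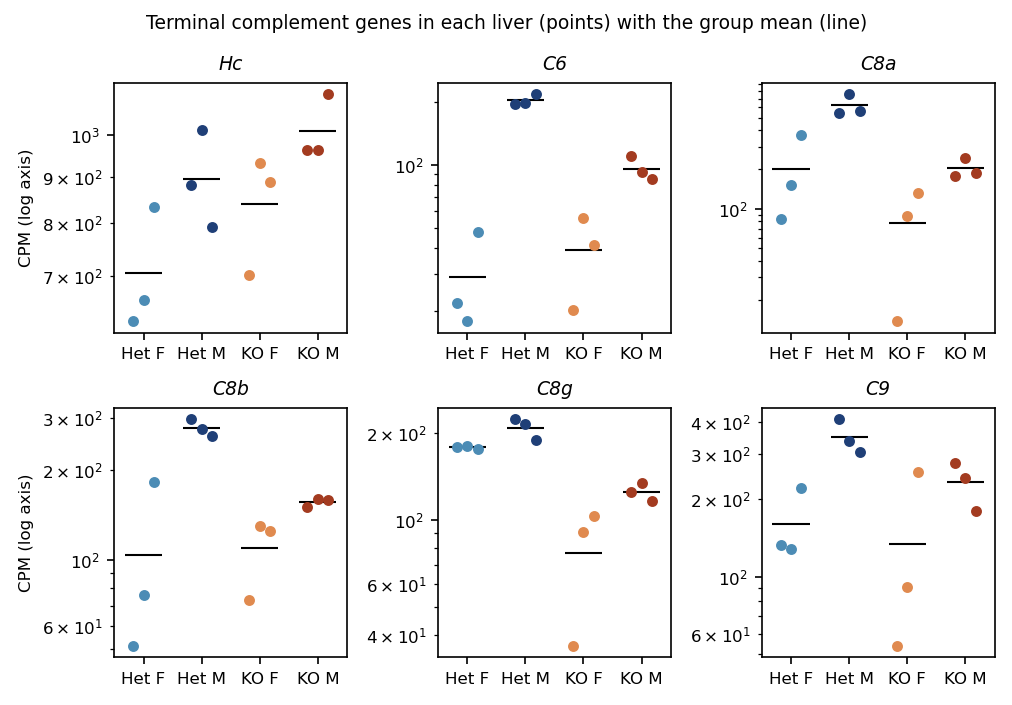
CPM of the 6 terminal complement genes in each liver (points, 3 mice per group) with the group mean (line), on log axes that differ between panels. Except for Hc, the Het males lie above the Het females and above the KO males, and C6 is higher in all 6 males than in all 6 females.

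Outside the terminal pathway no sex difference passed the test. That of Mug2 was 0.85 on the log2 scale over both genotypes (adjusted p = 0.124) and 1.62 in KO mice (adjusted p = 0.140), where the widest of the terminal genes was 1.38. Mug1 was higher in males in both genotypes without overlap within either (log2 difference 0.57, adjusted p = 0.11), and C2 had a log2 difference of 0.54 (adjusted p = 0.0954). DESeq2 called 5 members for sex (C6, Mug1, C8b, Mug2 and C2), and without KO_F_123 the main test called 4 (C9, C6, Mug2 and C1s1). The Het sex difference of Mbl2 was opposite, -0.94 (adjusted p = 0.0609), with Het females above Het males, and in KO mice it was 0.29 (adjusted p = 0.567).

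Coagulation and complement were then set side by side. Of the 23 coagulation genes, 7 were called higher (30.4%) and 5 lower (21.7%) in KO livers, with a median log2 fold change of 0.14. Of the 18 complement genes, 2 were called higher (11.1%) and 3 lower (16.7%), with a median of -0.18. Among all genes tested, 12.2% were called higher and 10.2% lower, so that the complement shares were near those of all genes. With 1 liver left out, 4 to 7 coagulation genes were called higher (4 without Het_F_111, Het_F_126 or Het_M_137) and 3 to 5 lower (3 without Het_F_126, Het_M_125, KO_M_118 or KO_M_136), and 2 to 3 complement genes were higher and 2 to 6 lower (6 without KO_F_123). The coagulation median then ranged from 7.2e-04 (without KO_F_112) to 0.22 (without KO_F_108) and the complement median from -0.24 (without Het_M_119) to -0.05 (without Het_F_126). The difference between the medians was 0.317, and it ranged from 0.193 (without Het_F_126) to 0.388 (without KO_F_123) when 1 liver was left out. Without KO_F_108 and Het_F_126 together it was 0.161, and the complement median turned to 0.07. Without Mug1 and Mug2, which are general protease inhibitors, the coagulation median was 0.24. Since the lists were chosen with results known, no p is given for them. Within complement the roles differed in sign: the 4 genes of C3, the alternative pathway and its fluid regulators had a median of 0.46 and all 4 were positive, the recognition molecules and early proteases had a median of -0.18, and the terminal pathway had a median of -0.40. Within coagulation the medians were 0.19 (vitamin K-dependent), 0.31 (cofactors and fibrinogen), 0.28 (contact and kinin) and -0.23 (inhibitors and fibrinolysis).

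The mean level of each list in a liver, as log2 CPM centered on the mean of the 12 livers, showed how the contrast was spread over mice. The coagulation mean was -0.14 to 0.03 in Het females, -0.11 to 0.05 in Het males, -0.13 to 0.14 in KO females and 0.08 to 0.16 in KO males. The complement mean was -0.30 to 0.16 in Het females, 0.23 to 0.50 in Het males, -0.92 to -0.02 in KO females and 0.14 to 0.18 in KO males. KO males lay above Het males in coagulation and below them in complement without overlap, whereas KO and Het females overlapped in both. The complement roles differed in males. Terminal genes were lower without overlap (0.88 to 1.05 in Het, 0.11 to 0.26 in KO males). The C3 and alternative pathway genes were higher without overlap (-0.47 to -0.03 in Het, 0.15 to 0.36 in KO males). Recognition molecules and early proteases overlapped. The coagulation mean minus the complement mean was accordingly -0.45 to -0.34 in Het males and -0.08 to 0.02 in KO males, against -0.13 to 0.30 in Het females and -0.10 to 0.81 in KO females, the last being KO_F_108.

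**Figure D5:**
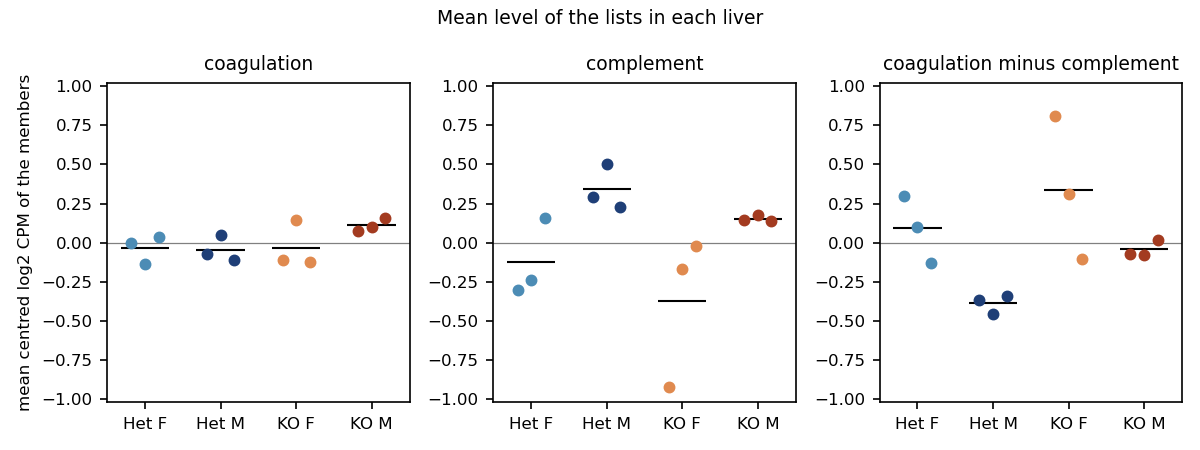
Mean over the members of log2 CPM, centered on the mean of the 12 livers, for the 23 coagulation genes, the 18 complement genes and their difference (vertical axes, log2 units) in each liver (points) with the group mean (line). The KO males lie above the Het males for coagulation and below them for complement, and the lowest complement point, at -0.92, is KO_F_108.

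Levels were also compared per length. After C3, the most abundant transcripts in Het livers were Fga at 1286 ± 215 TPM, Serpinc1 at 1267 ± 141 TPM and Fgg at 1019 ± 189.6 TPM, and F8 was the lowest at 3.17 ± 0.892 TPM (mean ± SD, n = 6). The ranges of Fga, Serpinc1 and Fgg over the Het livers overlapped. Differences between genes within a liver were not tested, and these SDs do not measure them. In KO livers the order of the highest was C3, Fga at 2050.4 ± 903 TPM, Fgg at 1538 ± 682 TPM and Serpinc1 at 1240.0 ± 188 TPM, with F8 again lowest at 1.74 ± 0.192 TPM. Without KO_F_108, the mean of Serpinc1 (1309 ± 93.8 TPM, n = 5) stood above that of Fgg (1259.5 ± 27.1 TPM), an order that was not tested. The widest moves in rank among the 41 were those of Kng2 (25 to 15), C8a (26 to 35, or to 33 without KO_F_108) and C8g (15 to 23). Pros1 moved from rank 40 to 33, or to 38 without KO_F_108. Together the 41 genes held 1.15% to 1.20% of all TPM in Het females, 0.901% to 1.09% in Het males, 1.29% to 1.70% in KO females and 1.26% to 1.41% in KO males, and every KO liver exceeded every Het liver. The coagulation genes held most of this, 0.634% to 0.832% in Het livers, against 0.844% to 1.30% in KO livers. The complement genes held 0.267% to 0.382% in Het livers, against 0.390% to 0.463% in KO livers. Their share was thus higher in KO males than in Het males, although the complement mean above was lower. That mean counts every gene equally, whereas the share follows the most abundant transcripts, such as C3.

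The expression of factors known to act on these genes in hepatocytes was examined beside them. Of 25 tested regulators, 5 were called higher in KO livers (Cux2, Stat3, Stat5b, Esr1 and Il1r1) and 6 lower (Cebpa, Nr1h4, Ppara, Foxa1, Bcl6 and Nr0b2). Stat3, which carries the interleukin 6 signal, was at 104 ± 7.42 CPM in Het livers and 213 ± 48.4 in KO livers (log2 fold change 1.04, standard error 0.14, adjusted p = 5.41e-04), without overlap. Cebpa, the C/EBPα factor of hepatocytes, was at 255 ± 75.1 CPM in Het livers and 118.2 ± 34.7 in KO livers (log2 fold change -1.10, standard error 0.15, adjusted p = 5.86e-04), also without overlap. Cux2, a repressor known for its female-biased liver expression, was measured at 0.48, 10.1 and 41.7 CPM in the Het livers (lowest, median and highest of 6) and 20.3, 39.5 and 119.1 in the KO livers, with overlap over both sexes (log2 fold change 3.50, standard error 0.37, adjusted p = 2.83e-04). Its Het males stood at 0.48 to 0.834 CPM and its KO males at 20.3 to 46.9 CPM, beside Het females at 19.3 to 41.7 CPM. The part of these factors in the values of the 41 genes was not tested.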

How the data were processed

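Libraries were stranded and made from total RNA of 12 livers after removal of ribosomal RNA. The authors aligned reads with STAR 2.7.9a to GRCm39 and quantified GENCODE genes with Salmon 1.10.1 (versions from the submitters' processing notes). The deposited expected counts are estimated by the authors' pipeline for each gene, and 12.0% of them are not whole. The authors also deposited counts rebuilt from TPM and the TPM values themselves, which keep no depth. These other tables served for alternatives and for levels per length. Mice were grouped by the KO, Het and sex labels, 3 per group, and p-values measure the spread between mice. Livers of a group differed by more than sampling noise (chi-square per degree of freedom 86.8 to 226).

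The 41 members, their roles, the lists of further genes and the cell type markers were chosen with earlier results of these data known. Full values are given for members called over both sexes, in 1 sex or by sex, and the others by fold change. The 3 called genes of smallest p are given for each list of further genes. Of these lists, 2 genes are not reported here and were left out of the counts. The low-count filter asked for 5 or more estimated counts in 3 or more livers, with each library first scaled to the median total. Estimated counts were then rounded, scaled by TMM (factors 0.885 to 1.06) and fitted with edgeR 4.0.16 in R 4.3.3 (quasi-likelihood F test, robust, prior count 2) on the 4 group means. A gene was called where its p, adjusted by Benjamini-Hochberg over all 19350 tested genes, was under 0.05. Standard errors were taken from the F statistic. The fit was tested on simulated data. Near-identical genes can share reads, so the share of 31-base words that a member's transcripts share with other genes was counted in GENCODE M39, a later release than the authors used. The 8 members without a RefSeq window are C4b, Masp1, Plg, Proc, Cfi, Cfb, C2 and Kng1. Alternatives covered the count table, rounding, filter, scaling, dispersion, model, tool (DESeq2 1.42.0, limma 3.58.1 on TPM with a pseudocount of 1 or 0.1), threshold and each mouse left out.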

Additional observations from a re-analysis of the deposited data

Results flagged for a closer look

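The genotype difference of Mbl2, a mannose-binding lectin, pointed in opposite directions in the sexes, as all KO females lay below all Het females and all KO males above all Het males. On the log2 scale, the male difference exceeded the female one by 1.23. The interaction test gave an unadjusted p of 0.00112 and an adjusted p of 0.224, and DESeq2 called it. The value ranged from 1.05 (without KO_F_108) to 1.48 (without Het_M_125) when single mice were left out. No member lay the other way round, with KO females higher and KO males lower without overlap.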

How the results depend on the processing

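The single-gene results followed over all alternatives were mostly calls of the main test. Uncalled members with log2 fold changes near 0 were not among them, so that an unchanged direction was likely beforehand. Of 1425 such values, none changed direction, 1274 kept their side of the threshold, 25 passed it where the main test had not and the rest fell short of it. Kng1, Kng2, Pros1, C3, Cfi, Serpinf2, F8, Klkb1, C8g and Mug2 (both sexes together) and C6 (sex) kept their calls in every alternative. Leaving out KO_F_108 kept all 17 genotype calls and added C4bp and C8a, and leaving out KO_F_108 and Het_F_126 together, chosen after seeing the data, kept 14 (losing Fgg, Mug1 and Proc). Of all genes tested, 22.4% were called for genotype, 11.03% in females, 7.45% in males, 0.0465% for the interaction and 1.02% for sex. With an adjusted p under 0.01 these were 9.19%, 1.83%, 1.81%, 0.0207% and 0.362%. With no filter, which adds weakly expressed genes to those tested, genotype called 11.3%, females 5.02%, males 3.57% and sex 0.600%. For members the 0.01 threshold left 4 lower for genotype, 0 higher and 2 lower in females and 0 higher in males. With the livers of that sex alone the female share was 2.65% (members 0 higher and 2 lower), and members lower in males were 6. DESeq2 called 11.6% in males, 0.822% for the interaction and 3.73% for sex, and of the members 6 higher in females, 2 lower in males, 1 for the interaction and 5 for sex. The interaction called 0.0775% with unrounded counts, 0.108% with at least 10 reads in every sample, 0.0930% with relative log expression scaling (which called 1 member lower in males), 0.0724% with upper quartile scaling, 0.124% without robust estimation, and 0.248% and 0.155% with limma on log2(TPM + 1) and log2(TPM + 0.1), each of which called 10 members lower in females. Sex called 0.672% in the additive model, and counts scaled from TPM called 3 members higher in males. Without KO_F_108 and Het_F_126 the calls were 2.66% of genes in females, 2 members lower in females, 6 lower in males, 2 for the interaction and 3 for sex.

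With single mice left out, genotype calls ranged from 16.6% to 22.3% of genes tested, in females from 4.38% (without KO_F_108) to 14.2%, in males from 2.79% (without Het_M_125) to 9.74%, for the interaction from 0.0208% to 0.468% (without KO_F_123) and for sex from 0.589% (without KO_M_118) to 1.77% (without Het_F_126). Members called ranged from 6 to 10 (higher) and 5 to 10 (lower) for genotype, 0 to 6 and 3 to 8 in females, 1 to 7 and 0 to 4 in males, and 1 to 4 for sex. The coagulation median exceeded the complement median in all alternatives. The cause of these changes was not tested. No paired analysis was possible because the labels do not say which mice came from the same litter. With 3 mice per group, differences of the size seen between single mice, as for the terminal pathway in females, limit what the contrasts within 1 sex can show.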
